A study of Homo sapiens with 6 samples.

Results

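The mitochondrial respiratory chain was examined through its nuclear-encoded subunit genes in 6 total RNA-seq libraries. Genes were taken when their symbol was SDHA, SDHB, SDHC or SDHD or began with NDUFA, NDUFB, NDUFC, NDUFS, NDUFV, UQCR, COX4, COX5, COX6, COX7, COX8 or ATP5, with NDUFAF assembly factors and pseudogenes left out. This gave 91 of the 30017 genes in the count table. Of the 91, 85 encode a subunit or a subunit isoform: 37 of complex I, 4 of complex II, 9 of complex III, 19 of complex IV and 16 of complex V. The other 6 carry the name without being subunits: the protein-coding genes ATP5S and ATP5SL, the noncoding RNAs NDUFA6-AS1 and NDUFB2-AS1, and the readthrough transcripts NDUFC2-KCTD14 and ATP5J2-PTCD1. NDUFA4 and NDUFA4L2 were grouped with complex IV, where the NDUFA4 protein is now placed. Gene symbols are given as in the count table, so that ATP synthase genes carry their older names (ATP5G1 is now ATP5MC1, for example).

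All libraries came from BLaER, a human leukaemia B cell line that carries an inducible C/EBPα and converts into macrophage-like cells (iMacs) when estradiol, IL-3 and CSF-1 are added. All 3 groups were of the same single subclone, CTCF-AID, in which CTCF is fused to an auxin-inducible degron, so that auxin leads to the removal of the CTCF protein. The 0 h group (n = 2) was cultured without conversion factors and without auxin, the 96 h control group (n = 2) had 96 h of conversion without auxin, and the 96 h CTCF-depleted group (n = 2) had the same conversion with auxin throughout. No cells without the degron were treated with auxin here, so effects of auxin itself and of CTCF loss cannot be told apart. The comparisons ask how subunit transcripts change as the B cells become iMacs, and whether they differ when CTCF is removed during that conversion.

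The respiratory chain moves electrons from NADH and succinate to oxygen through complexes I to IV of the mitochondrial inner membrane. Complexes I, III and IV use the energy to pump protons, and complex V, the ATP synthase, uses the returning protons to make ATP. Complexes I, III, IV and V combine subunits made from nuclear genes with subunits encoded by mitochondrial DNA, whereas complex II is made from nuclear genes alone. The 13 mtDNA-encoded subunit genes were not found in the count table, so they were not analysed here and add nothing to the CPM values.

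Libraries held between 9273470 and 12718780 counts, and values are given as CPM, counts scaled to the same effective library size. In all, 14758 genes had enough counts for testing. CTCF transcript counts were 2235 and 2849 at 0 h, 2048 and 1875 at 96 h control and 2062 and 2051 at 96 h CTCF-depleted, and the difference between the 96 h groups did not pass the test (log2 fold change 0.10, standard error 0.05, edgeR adjusted p = 0.119). The degron acts on the protein, so this level does not check the depletion. The labelled identities were met by marker genes: all 10 B cell markers fell from 0 h to 96 h control and 9 of 10 macrophage markers rose, with LILRB4 as the exception. The summed level of the B cell markers was 3061–3072 CPM at 0 h, 428–437 at 96 h control and 442–454 at 96 h CTCF-depleted, and that of the macrophage markers was 116–123, 5362–5617 and 5204–5234 CPM. At 0 h the macrophage marker FCGR1A was at 0 counts in both libraries, and none of the B cell markers was at 0 in any library at 96 h. Of the 7 erythroid and megakaryocyte markers, HBB, HBA1 and HBA2 were at 0 counts in every library, while ITGA2B and PPBP rose, giving a sum of 1.5–1.9, 25.8–27.2 and 27.9–29.6 CPM. Of the 6 T and NK cell markers, CD3D and CD3G were at 0 in every library, while CD2 and NKG7 rose, giving a sum of 2.58–2.85, 38.2–38.5 and 32.3–34.5 CPM. These markers move with the 0 h to 96 h comparisons, and their part in the subunit results was not tested. Between CTCF-depleted and control iMacs, the B cell markers CD22 (log2 fold change 1.47) and VPREB3 (1.34) and the macrophage marker ITGAM (1.15) were called higher and the B cell markers RAG1 (−1.94) and VPREB1 (−0.89) lower, so markers also move with that comparison, and their part in it was likewise not tested. In these bulk libraries, fewer cells of a type and less RNA per cell cannot be told apart.

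The upstream sequences of 4 subunit genes are shown because their transcripts carry the results below: NDUFB6 had the largest decrease of any subunit during conversion, NDUFA6 and NDUFS3 were lower in both steps, and COX6A1 was called lower after CTCF depletion. Each is the 250 bases before the RefSeq start (GRCh38.p14), read 5′ to 3′ on the gene's own strand. Capitals mark matches to 3 motifs of factors known to act at nuclear genes for mitochondrial proteins, searched on both strands: the NRF1 half-site GCGCATGC, the ETS core CCGGAAG, which GABP also reads, and the YY1 core AAGATGGC.
NDUFB6 (chr9:32573160-32573409, minus strand): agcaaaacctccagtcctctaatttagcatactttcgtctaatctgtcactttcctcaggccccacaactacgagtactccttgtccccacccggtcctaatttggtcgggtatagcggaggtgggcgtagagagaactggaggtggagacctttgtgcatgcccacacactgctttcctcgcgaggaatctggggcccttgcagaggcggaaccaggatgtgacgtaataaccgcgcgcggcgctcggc
NDUFA6 (chr22:42090773-42091022, minus strand): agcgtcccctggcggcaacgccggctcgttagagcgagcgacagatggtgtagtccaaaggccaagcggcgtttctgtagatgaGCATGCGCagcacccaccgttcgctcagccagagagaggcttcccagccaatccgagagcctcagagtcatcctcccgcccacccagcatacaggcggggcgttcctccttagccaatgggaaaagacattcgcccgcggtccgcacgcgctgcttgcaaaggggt
NDUFS3 (chr11:47578824-47579073, plus strand): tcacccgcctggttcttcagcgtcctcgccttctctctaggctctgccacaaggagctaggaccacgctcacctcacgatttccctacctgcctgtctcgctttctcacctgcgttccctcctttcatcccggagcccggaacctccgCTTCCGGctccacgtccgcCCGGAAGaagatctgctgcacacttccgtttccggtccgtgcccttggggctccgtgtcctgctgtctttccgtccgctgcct
COX6A1 (chr12:120437863-120438112, plus strand): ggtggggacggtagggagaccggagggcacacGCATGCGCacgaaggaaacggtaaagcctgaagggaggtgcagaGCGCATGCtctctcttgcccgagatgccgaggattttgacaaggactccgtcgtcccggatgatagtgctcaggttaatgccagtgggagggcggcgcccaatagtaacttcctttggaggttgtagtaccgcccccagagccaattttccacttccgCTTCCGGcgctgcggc
COX6A1 held 2 NRF1 half-sites and 1 ETS core, NDUFS3 held 2 ETS cores, NDUFA6 held 1 NRF1 half-site, and NDUFB6 had no match in these letters.

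Of the 77 subunit genes with enough counts for testing, 65 matched a RefSeq promoter entry, with windows of 250 bases before to 50 bases after each start. The NRF1 half-site was in 14 of the 65 (21.5%), against 3.68% of all 27305 genes with an entry and 6.20% of the 9963 of those tested here. The ETS core was in 20 (30.8%), against 12.2% and 21.8%, and the YY1 core in 12 (18.5%), against 3.52% and 6.48%. No matches of different motifs overlapped in these windows. Subunits with an NRF1 half-site had a median log2 fold change of −0.36 from 0 h to 96 h control and those without one −0.42. For the ETS core the medians were −0.25 and −0.43, and for the YY1 core −0.26 and −0.42. A match is a description of the letters and does not show binding.

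Subunit transcripts took a smaller share of the counts after conversion. The 85 subunit genes together held 6385 CPM at 0 h (SD 262, n = 2), 5122 CPM at 96 h control (SD 79.5, n = 2) and 4462 CPM at 96 h CTCF-depleted (SD 162, n = 2). The difference was −19.8% between 96 h control and 0 h, and −12.9% between the CTCF-depleted and the control iMacs. In each of the 5 complexes both libraries of each group lay apart from both libraries of the next, in the same order. Complex I held 2052 and 1922 CPM at 0 h, 1641 and 1630 at 96 h control and 1458 and 1378 at 96 h CTCF-depleted. Complex V had 2318 and 2166 CPM, then 1690 and 1647, then 1441 and 1369. Complex IV had 1122 and 1054 CPM, then 887 and 847, then 813 and 778. The sums of complexes III and II stepped down as well, with 759 and 748, 690 and 681, and 634 and 600 CPM for complex III and 320 and 310, 271 and 261, and 231 and 223 CPM for complex II. In complex II the step from 0 h to 96 h control came from SDHA, since the other 3 genes together held 120 and 121 CPM at 0 h and 157 and 144 CPM at 96 h control. The sums weight each gene by its counts and received no test.

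Subunits also varied together between libraries of one group. At 0 h, replicate 1 had the higher CPM for 63 of the 77 tested subunits (81.8%), against 49.1% of all genes tested. In the CTCF-depleted group replicate 1 was higher for 57 (74.0%, against 53.9% of all genes), and at 96 h control for 43 (55.8%, against 47.5%). The members therefore do not count as separate observations of a condition.

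From 0 h to 96 h control, 3 of the 77 tested subunits rose and 21 fell at the thresholds used by the study, an adjusted p under 0.01 with a log2 fold change beyond 0.6 in either direction. Of all genes tested, 25.4% rose and 22.9% fell, so the share of subunits that fell (27.3%) was close to that of all genes, and the share that rose (3.90%) was below it. Without a fold threshold, at an adjusted p below 0.05, 9 subunits (11.7%) were higher and 51 (66.2%) lower, against 38.0% and 37.3% of all genes. Most changes were small. The median log2 fold change of the subunits was −0.38 and that of all genes 0.02, and 61 of the 77 lay below 0. Both libraries at 96 h control were below both at 0 h for 56 subunits (72.7%), as for 42.8% of all genes, and above both for 11 (14.3%, against 43.9% of all genes). Library-size scaling without trimming, and upper-quartile scaling, raised the number that fell to 32. Both moved the median of all genes to −0.10, and the subunit median stayed below it.

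**Figure D1:**
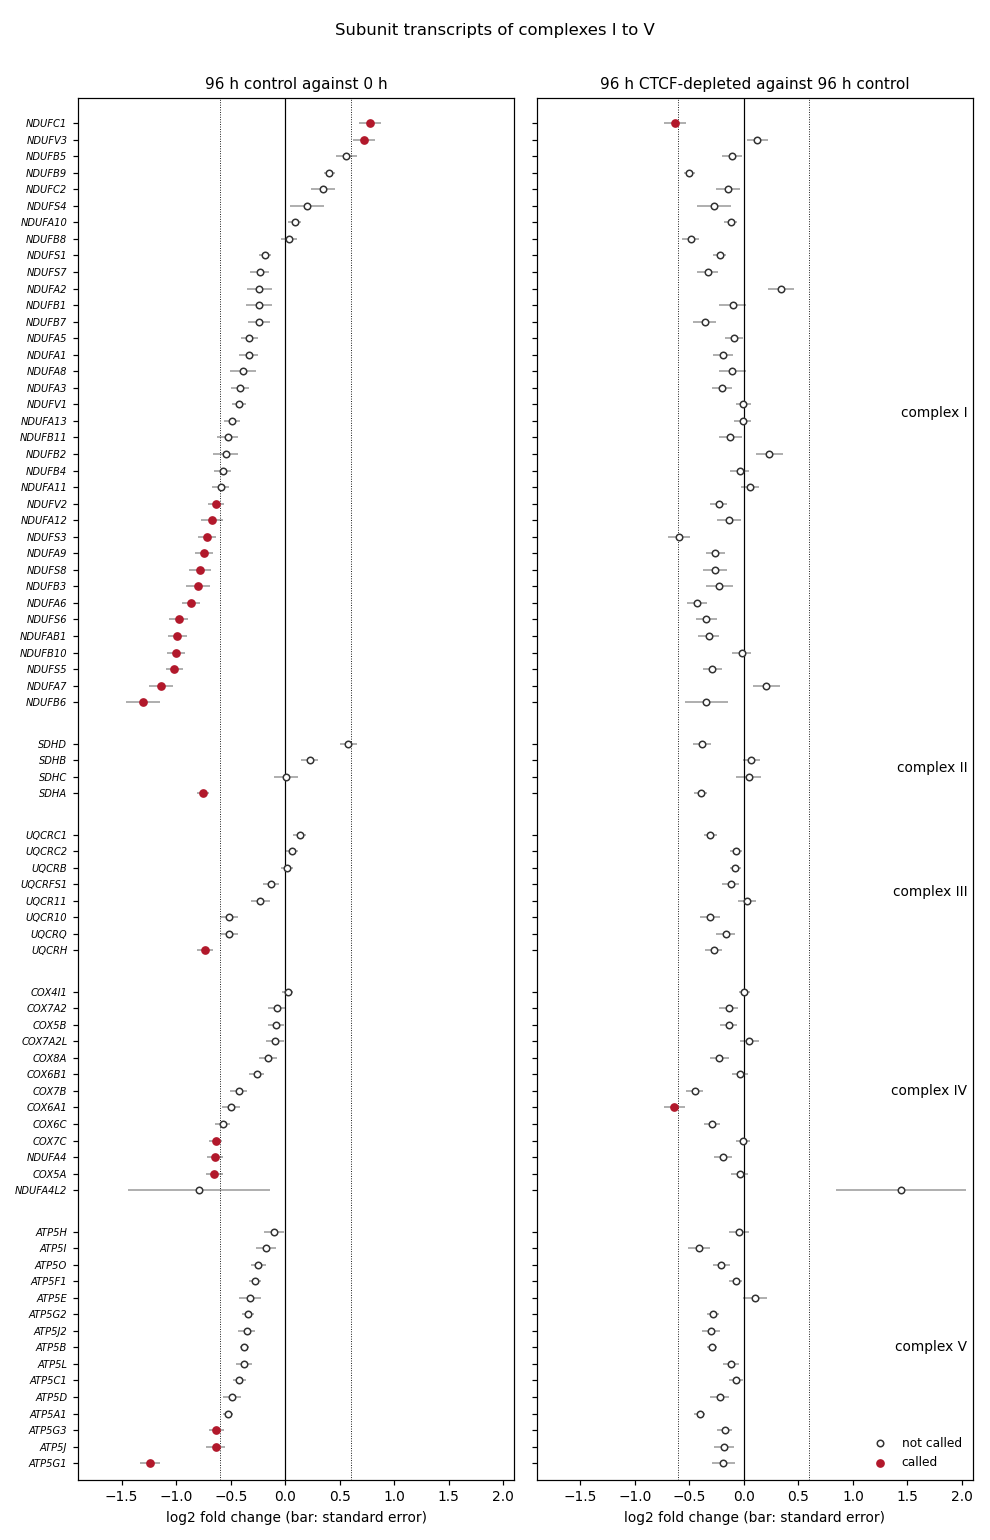
Log2 fold change (horizontal axes) of 76 of the 77 tested subunit genes, grouped by complex and ordered by the change in the left panel, for 96 h control against 0 h (left) and 96 h CTCF-depleted against 96 h control (right). Bars are standard errors, dotted lines mark the fold threshold of 0.6 and filled points passed both thresholds: 2 higher and 21 lower on the left, 2 lower on the right.

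Complex I oxidises NADH and held 13 of the 21 subunits that fell. These were 35.1% of its 37 tested genes, against 27.3% of all subunits and 22.9% of all genes. Among the 7 core subunits, which carry the flavin, the iron-sulfur clusters and the quinone site, NDUFS3, NDUFS8 and NDUFV2 fell. NDUFS3 had 53.5 and 47.6 CPM at 0 h and 30.4 and 30.9 CPM at 96 h control (log2 fold change −0.72, standard error 0.08, edgeR adjusted p = 5.4e-11). NDUFS8 went from 40.9 and 37.5 CPM to 20.8 and 24.6 CPM (−0.78, standard error 0.10, edgeR adjusted p = 3.09e-10). NDUFV2, an iron-sulfur protein beside the flavin site, went from 92.0 and 90.2 CPM to 59.8 and 57.4 CPM and lay just past the fold threshold (−0.63). In each of these 3 the groups did not overlap. NDUFS7, an iron-sulfur protein next to the quinone site, stood at −0.23, short of the fold threshold. NDUFS1 (−0.19) and NDUFV1 (−0.42), which with NDUFV2 form the NADH-oxidising tip, were lower without reaching the fold threshold.

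The strongest decreases were in accessory subunits, which surround the core and are needed for assembly and stability. NDUFB6 (chr9:32553001-32573184, GENCODE v44, hg38, minus strand), in the membrane arm, had 19.5 and 17 CPM at 0 h and 6.80 and 7.87 CPM at 96 h control (−1.31, standard error 0.16, edgeR adjusted p = 1.4e-10). NDUFA7 had 38.7 and 32.3 CPM at 0 h and 14.6 and 17.4 CPM at 96 h control (−1.14, standard error 0.11, edgeR adjusted p = 1.09e-13). NDUFS5, at the intermembrane face, went from 76.0 and 74.0 CPM to 36.6 and 37.3 CPM (−1.02). In all 3 both libraries at 96 h control lay well below both at 0 h. NDUFB10, of the distal membrane arm, fell by 1.00 and NDUFAB1, the mitochondrial acyl carrier protein that also serves fatty acid synthesis, fell by 0.99 on the log2 scale. NDUFS6, an accessory subunit near the NADH-oxidising tip, fell by 0.98 and NDUFA6, which holds NDUFAB1 on the complex, fell by 0.86. By family, 5 of the 13 tested NDUFA genes of complex I (38.5%) and 3 of the 11 NDUFB genes (27.3%) fell, against 22.9% of all genes. None of either rose, against 25.4% of all genes. Values just short of the fold threshold were −0.59 for NDUFA11 and −0.57 for NDUFB4.

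The accessory subunits NDUFC1 and NDUFV3 rose. NDUFC1 (chr4:139266880-139302551, minus strand), a small membrane-arm subunit, had 19.7 and 18.8 CPM at 0 h and 33.4 and 32.5 CPM at 96 h control (0.78, standard error 0.10, edgeR adjusted p = 1.33e-09). NDUFV3 (chr21:42879644-42913304, plus strand), at the NADH-oxidising tip, had 19.3 and 18.8 CPM at 0 h and 32.9 and 29.7 CPM at 96 h control (0.72, standard error 0.10, edgeR adjusted p = 7.95e-09). For both genes the 96 h control libraries lay above the 0 h libraries with no overlap. NDUFB5 (0.56) and NDUFB9 (0.41, edgeR adjusted p = 3.6e-10) were also higher at 96 h in both libraries, without reaching the fold threshold.

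**Figure D2:**
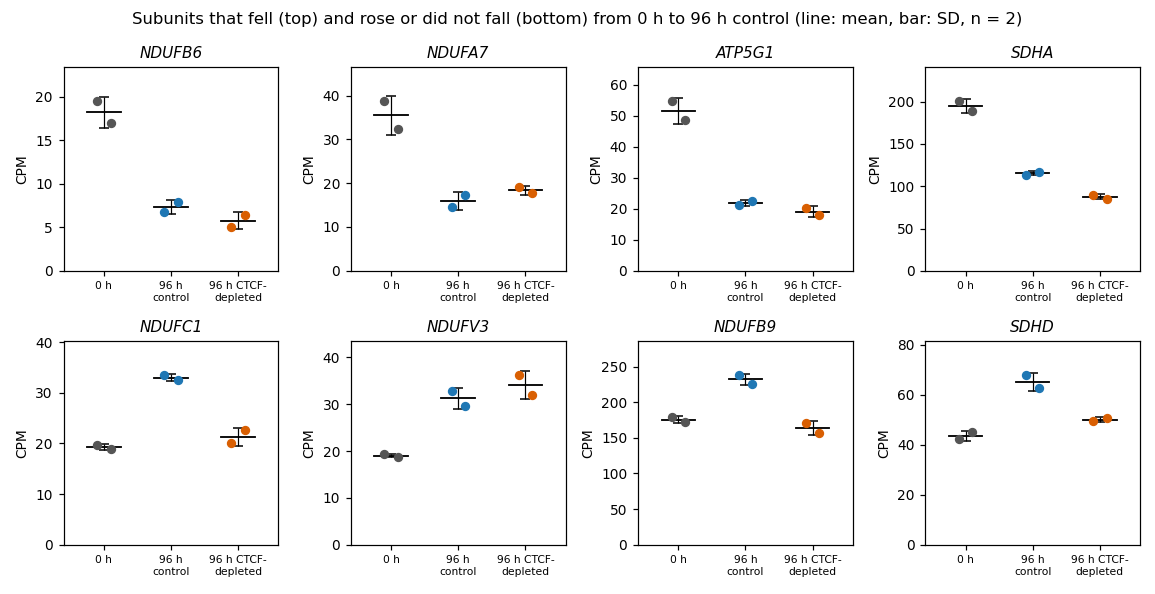
CPM (vertical axes, from 0) of 8 complex I, II and V subunits in each library of the 3 groups (horizontal axes), with lines for means and bars for SDs (n = 2). The upper 4 were lower in both 96 h control libraries than at 0 h, the lower 4 were higher, and NDUFC1 and NDUFB9 were lower again in the CTCF-depleted libraries.

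Complex II, succinate dehydrogenase, had 1 of 4 members that fell (25.0%, against 22.9% of all genes). SDHA (chr5:218303-257082, plus strand), the flavoprotein that oxidises succinate, had 200.3 and 189 CPM at 0 h and 114 and 117 CPM at 96 h control (−0.75, standard error 0.06, edgeR adjusted p = 5.27e-18). The iron-sulfur subunit SDHB stood at 0.22, and the membrane anchors SDHC and SDHD at 0.01 and 0.58, none past the fold threshold. SDHA was lower in both 96 h control libraries, while SDHD had 42.2 and 44.9 CPM at 0 h and 67.8 and 62.7 CPM at 96 h control. SDHA shares sequence with its pseudogenes, and reads could be split between them: SDHAP1, SDHAP2 and SDHAP3 stood at 0.51, 0.81 and −1.81.

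Complex III passes electrons from quinol to cytochrome c. Its 8 tested members had a median of −0.18. UQCRH, the hinge protein near cytochrome c1, was the only one that fell (12.5%, against 22.9% of all genes). UQCRH went from 108 and 105 CPM to 64.7 and 63.0 CPM (−0.74, standard error 0.07, edgeR adjusted p = 8.35e-14). The core proteins UQCRC1 (0.13) and UQCRC2 (0.06) and the Rieske iron-sulfur protein UQCRFS1 (−0.13) were all close to 0. The related gene UQCRHL had 1 to 10 counts and was not tested.

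Complex IV, cytochrome c oxidase, reduces oxygen. COX5A, COX7C and NDUFA4 fell, each only just past the fold threshold. They were 23.1% of its 13 tested genes, against 22.9% of all genes. COX5A had 102 and 88.5 CPM at 0 h and 63.7 and 57.0 CPM at 96 h control (−0.65), and its call was lost without 0 h replicate 1 or without 96 h control replicate 2. COX4I1, the partner of COX5A in early assembly, had 187 and 182 CPM and then 194 and 181 CPM (0.02), so its groups overlapped. COX7C and NDUFA4 both stood at −0.64, and the call for NDUFA4 was lost without 0 h replicate 1. Isoforms known from muscle, lung, testis or other tissues had few or no counts: COX4I2, COX7A1, COX7B2 and COX8C were at 0 counts in every library, COX6A2 had at most 2 counts and COX6B2 at most 5. A count of 0 here allows up to 3 counts, or 0.225 to 0.309 CPM depending on the library, with counting error alone considered.

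Complex V showed small decreases across its parts. All 15 tested members had a log2 fold change below 0. Without a fold threshold 13 were lower (86.7%, against 37.3% of all genes). At the thresholds of the study only 3 of the 15 fell, a share slightly below the 22.9% of all genes. The catalytic F1 subunits ATP5A1 (alpha, −0.52) and ATP5B (beta, −0.37) and the rotor subunit ATP5C1 (gamma, −0.42) stayed short of the fold threshold. The largest decrease of the complex was that of ATP5G1 (chr17:48892765-48895871, plus strand). It had 54.7 and 48.7 CPM at 0 h and 21.1 and 22.5 CPM at 96 h control (−1.24, standard error 0.09, edgeR adjusted p = 3.4e-18). ATP5G1, ATP5G2 and ATP5G3 encode the same mature c subunit of the membrane ring from separate genes. Their shares are of counts, which also depend on transcript length, so they are compared between groups and not between genes. ATP5G1 gave 14.1% and 13.8% of the counts of the 3 genes at 0 h, 8.24% and 9.07% at 96 h control and 9.35% and 8.48% at 96 h CTCF-depleted. ATP5G2 gave 44.7% and 47.6%, then 53.3% and 53.7%, then 50.7% and 52.7%. The share of ATP5G1 was thus lower in all 4 libraries at 96 h than at 0 h, and that of ATP5G2 higher. ATP5G3 (−0.63) and the stalk subunit ATP5J (−0.64) were just past the fold threshold and lost their calls without 0 h replicate 1, and ATP5G3 also without 96 h control replicate 2. The related gene ATP5L2 had 5 to 11 counts and was not tested.

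With CTCF depleted, most subunits were slightly lower than in the control iMacs and few passed the fold threshold. Between 96 h CTCF-depleted and 96 h control, 0 of the 77 subunits rose and 2 fell, COX6A1 and NDUFC1, against 5.41% and 7.03% of all genes. At an unadjusted p below 0.05, 2 subunits were higher in edgeR, and DESeq2 also called 0. Without a fold threshold, 2 subunits (NDUFA2 and NDUFA4L2) were higher and 31 (40.3%) lower, against 16.1% and 22.6% of all genes. The 31 fell to 17 with DESeq2, to 18 without 96 h control replicate 1 and to 16 without 96 h CTCF-depleted replicate 2. The median log2 fold change was −0.18 for the subunits and −0.03 for all genes, and 65 of the 77 lay below 0. Without 96 h CTCF-depleted replicate 2 the subunit median was −0.074 with that of all genes at 0.00, and replicate 2 is the library of that group in which most subunits were lower. Both CTCF-depleted libraries lay below both control libraries for 53 subunits (68.8%), as for 37.8% of all genes, and above both for 6 (7.79%, against 30.1% of all genes). This comparison and the 0 h to 96 h control comparison share the 96 h control libraries, so their values are set side by side without a measure of likeness.

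COX6A1 (chr12:120438090-120440737, plus strand), an accessory subunit of cytochrome c oxidase, had 66.0 and 55.2 CPM at 0 h, 46.0 and 39.4 CPM at 96 h control and 25.8 and 29.1 CPM at 96 h CTCF-depleted. It was lower in both depleted libraries than in either control library (log2 fold change −0.64, standard error 0.10, edgeR adjusted p = 1.45e-07). NDUFC1 had 33.4 and 32.5 CPM at 96 h control and 20.1 and 22.6 CPM at 96 h CTCF-depleted (−0.63, standard error 0.10, edgeR adjusted p = 9.3e-07). The depleted iMacs and the B cells, with 19.7 and 18.8 CPM, differed by 0.15 on the log2 scale (edgeR adjusted p = 0.209). Both calls lie near the fold threshold and were lost with library-size scaling, without 96 h control replicate 1 and without 96 h CTCF-depleted replicate 1, and that of NDUFC1 also with upper-quartile scaling, with no filter and with only the 4 libraries compared, with log2 fold changes of −0.71 to −0.49 for COX6A1 and −0.68 to −0.51 for NDUFC1 over all alternatives. NDUFS3 was just short of the threshold at −0.60, with 20.1 and 20.5 CPM in the depleted libraries.

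Several subunits were lower without a fold threshold after having been higher at 96 h than at 0 h, or stable. NDUFB9, in the membrane arm of complex I, had 179 and 172 CPM at 0 h, 238 and 226 CPM at 96 h control and 171 and 157 CPM at 96 h CTCF-depleted (−0.50 against 96 h control, standard error 0.05, edgeR adjusted p = 5.58e-12). SDHD, a membrane anchor of complex II, had 49.4 and 50.7 CPM in the depleted libraries against 67.8 and 62.7 CPM in the control libraries (−0.38, edgeR adjusted p = 5.86e-05). NDUFB8 had 65.1 and 67.7 CPM at 96 h control and 48.2 and 46.5 CPM at 96 h CTCF-depleted (−0.49, edgeR adjusted p = 6.83e-07). For these 3 the depleted libraries lay below the control libraries without overlap. Other subunits were lower at both steps: COX7B (−0.45), NDUFA6 (−0.43), the alpha and beta subunits ATP5A1 (−0.41) and ATP5B (−0.30) of the F1 head, and SDHA (−0.39). ATP5A1 had 492 and 471 CPM at 0 h, 345 and 326 CPM at 96 h control and 261 and 245 CPM at 96 h CTCF-depleted. By complex, 14 of the 37 complex I subunits, 2 of 4 in complex II, 3 of 8 in complex III, 4 of 13 in complex IV and 8 of 15 in complex V were lower without a fold threshold. Other subunits were near 0, such as COX4I1 at 0.00 and NDUFA13 at −0.01. NDUFA2, an accessory subunit of complex I, was higher, with 19.2 and 20.7 CPM at 96 h control and 27.8 and 22.7 CPM at 96 h CTCF-depleted (0.34, edgeR adjusted p = 0.0171). NDUFA4L2, the paralogue of NDUFA4, had 0.441 and 0.463 CPM and then 1.57 and 0.921 CPM (1.44, edgeR adjusted p = 0.0487), a level near the limit of detection. Neither passed with DESeq2, without 96 h control replicate 1 or without 96 h CTCF-depleted replicate 1.

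Set directly against the B cells, the CTCF-depleted iMacs had 1 subunit that rose, NDUFV3, and 34 that fell (44.2%), against 27.2% and 25.2% of all genes. Without a fold threshold 5 were higher and 59 (76.6%) lower, against 39.2% and 38.3% of all genes. The median log2 fold change was −0.53, with 0.02 for all genes. By complex, 16 of 37 tested subunits of complex I fell (43.2%), 1 of 4 of complex II (25.0%) and 3 of 8 of complex III (37.5%). In complex IV 6 of 13 fell (46.2%) and in complex V 8 of 15 (53.3%), against 25.2% of all genes. NDUFB6 stood at −1.65, ATP5G1 at −1.43, NDUFS6 at −1.32, NDUFS3 at −1.31, SDHA at −1.15, COX6A1 at −1.13 and UQCRH at −1.02, with NDUFV3 at 0.85. This comparison uses the same 0 h libraries as that of the control iMacs, so its count is not a second, independent measurement.

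A different pattern was seen in NDUFA6-AS1, a noncoding RNA that is transcribed away from NDUFA6 and is no subunit gene. It lies at chr22:42090931-42137742 on the plus strand, and NDUFA6 at chr22:42085526-42090884 on the minus strand, with 46 bases between the starts (GENCODE v44, hg38). NDUFA6-AS1 had 18 and 29 counts at 0 h, 9 and 10 at 96 h control and 80 and 86 at 96 h CTCF-depleted, or 1.86 and 2.18, 0.794 and 0.926, and 7.41 and 7.92 CPM. It rose after CTCF depletion (log2 fold change 3.14, standard error 0.32, edgeR adjusted p = 2.72e-12) and remained called in every alternative, with log2 fold changes of 3.07 to 3.28. NDUFA6 itself had 62.0 and 55.7 CPM at 0 h, 33.7 and 30.7 CPM at 96 h control and 24.7 and 23.2 CPM at 96 h CTCF-depleted (−0.43, edgeR adjusted p = 0.000172). The lowest level of the coding transcript and the highest of the noncoding one were thus in the same libraries. From 0 h to 96 h control NDUFA6-AS1 fell by 1.24 on the log2 scale (edgeR adjusted p = 0.00554), a call lost with DESeq2, without 0 h replicate 2 and without either 96 h control library. The upstream sequence of NDUFA6 printed above is shared, since the RefSeq windows of both genes overlap by 260 bases, and the window of NDUFA6 also holds a YY1 core after its start. Nearby genes tested alongside were SMDT1 (−0.04), TCF20 (−0.04) and CYP2D6 (−0.09) after CTCF depletion. CYP2D6 lies inside NDUFA6-AS1 on the other strand, and the strand setting of the counting is not given in the sources used here, so reads where genes overlap could belong to either. The other noncoding RNA, NDUFB2-AS1, had 0.741 to 1.75 CPM and passed the test in no comparison, and the readthrough transcripts were at 0 counts in every library. ATP5S stood at 0.57 and ATP5SL at −0.22 from 0 h to 96 h control, and at −0.05 and −0.18 after CTCF depletion.

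**Figure D3:**
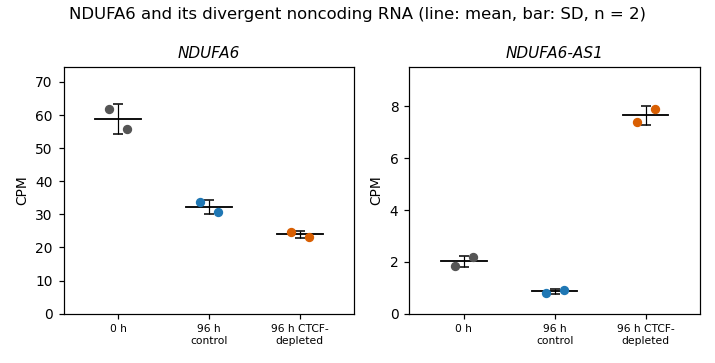
CPM (vertical axes, from 0, with separate scales) of NDUFA6 and of the noncoding RNA NDUFA6-AS1 in each library of the 3 groups (horizontal axes), with lines for means and bars for SDs (n = 2). NDUFA6 steps down from 62.0 and 55.7 CPM to 24.7 and 23.2 CPM, while NDUFA6-AS1 is highest in the 2 CTCF-depleted libraries.

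Other genes of the pathway were counted from lists, with the same thresholds. Among 5 further nuclear genes (subunits named outside the rule, and cytochrome c), 2 fell (40.0%, against 22.9% of all genes) from 0 h to 96 h control. CYCS, the electron carrier between complexes III and IV, stood at −0.84 and the ATP synthase-associated USMG5 at −0.69. None of the 5 was called after CTCF depletion, with USMG5 at −0.51 (edgeR adjusted p = 4.01e-05). Of 18 complex I assembly factors, 7 fell (38.9%, against 22.9% of all genes) and 0 rose (against 25.4%) from 0 h to 96 h control, with NDUFAF4 at −1.31. NUBPL (−0.68) and NDUFAF3 (−0.64) fell after CTCF depletion, 11.1% of the list against 7.03% of all genes. Without a fold threshold, 13 of the 18 (72.2%) were lower from 0 h to 96 h control and 5 (27.8%) after CTCF depletion. The shares of all genes were 37.3% and 22.6%, and 0 of the 18 were higher in either step. Of 24 complex IV assembly factors, 4 rose (SURF1 at 1.32, COA5 at 0.89, COX19 at 0.67 and SCO2 at 0.65) and 6 fell from 0 h to 96 h control, or 16.7% and 25.0% of the list, shares not far from the 25.4% and 22.9% of all genes. After CTCF depletion 0 of the 24 were called, against 5.41% of all genes higher and 7.03% lower. Of the 3 complex V assembly factors ATPAF1 fell (−0.98) from 0 h to 96 h control, 33.3% of the list against 22.9% of all genes. None of the 2 tested factors of complex II and 5 of complex III was called in either step. Against 0 h, where 25.2% of all genes were lower and 27.2% higher, the depleted iMacs had 2 of the 5 further genes, 11 complex I, 7 complex IV and 1 complex V assembly factors lower (40.0%, 61.1%, 29.2% and 33.3% of their lists), and TTC19 of complex III (0.73) and 2 complex IV factors higher.

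The TCA cycle, which supplies NADH and succinate, was counted together with genes of pyruvate entry (PC, PDHA1, PDHB, DLAT and PDHX). This list had 19 tested genes. From 0 h to 96 h control OGDH rose (0.83) and FH (−1.02), PC (−1.62), DLAT (−1.13) and IDH2 (−1.08) fell. These were 5.26% and 21.1% of the list against 25.4% and 22.9% of all genes, and after CTCF depletion PC fell again (−0.84). Without a fold threshold, 10 (52.6%) were lower and 6 (31.6%) higher from 0 h to 96 h control, against 37.3% and 38.0% of all genes. After CTCF depletion 10 (52.6%) were lower and 1 (5.26%) higher, against 22.6% and 16.1%. Small decreases after CTCF depletion were thus not particular to the subunits. Of 15 tested regulators of mitochondrial gene expression and biogenesis, 7 fell (46.7%, against 22.9% of all genes) and 0 rose (against 25.4%) from 0 h to 96 h control. The direction was not uniform in this step: without a fold threshold 9 were lower and 3 higher. The 3 higher regulators were PPARGC1B (0.55), ESRRA (0.41) and POLG (0.15). The 7 that fell included TFAM (−0.68), which packages mtDNA, the mitochondrial RNA polymerase POLRMT (−0.89), the transcription factor TFB2M (−0.82) and C10orf2 (−1.58), the mtDNA helicase. GABPB1, which forms the ETS factor GABP together with GABPA, fell by 0.64, while NRF1 itself stood at −0.05 and YY1, which is not on this list, at −0.08. After CTCF depletion 0 of the 15 changed at the thresholds of the study, with TFB1M at −0.33 and POLRMT at −0.23. YY1 stood at −0.24. Against 0 h, at the thresholds of the study, the depleted iMacs had 4 genes of the TCA cycle list (21.1%) and 6 regulators (40.0%) lower. None of either list was higher.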

How the data were processed

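Ribosomal-RNA-depleted total RNA libraries were sequenced from 3 groups of 2. Gene counts were deposited by the authors, who aligned reads to hg38 with STAR 2.6.1d in nf-core/rnaseq and counted exons with featureCounts 2.0.6, and no normalisation had been applied. The annotation release and strand setting are not given in the sources used here, so levels were not compared between genes per length. Genes passing filterByExpr (14758 of 30017, holding 99.9% of counts) were fitted in R 4.3.3 with edgeR 4.0.16 (TMM, quasi-likelihood test, all 6 libraries in 1 fit without covariates), with Benjamini-Hochberg adjustment over all genes tested. DESeq2 1.42.0, other scalings and filters, a replicate block and leaving out each library were alternatives. With 2 libraries a group, the spread was shared over genes and groups, and an exact permutation test of a single gene could not go below p = 0.333. The labels number the replicates without naming cultures. The study reports 2 biological replicates per condition and does not describe further what separates them. The p-values measure the spread between these libraries. Library numbers did not pair the samples (correlations of replicate differences between groups −0.02 to 0.02). Positions are from GENCODE v44 (hg38) and promoters from RefSeq (GRCh38.p14). The members and lists were chosen with earlier results of these data known. Named genes were, per complex and comparison, at most the 4 called members with the largest absolute change in each direction, all core subunits and isoform families, and values near the fold threshold. Genes named beyond this rule (NDUFB9, NDUFB8, SDHA pseudogenes, NDUFA6-AS1 and its neighbours among them) were chosen after their values were seen. The fit was tested on simulated data with known changes. 1 subunit gene and a few other genes enter the counts but are not reported here by name.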

Additional observations from a re-analysis of the deposited data

How the results depend on the processing

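The medians kept their sign under the alternatives run. Of 141 fold changes of named genes, 19 changed sign under some alternative, all with an adjusted p above 0.05 in the fit reported, such as COX4I1, SDHC, UQCRC2 and NDUFA4L2 from 0 h to 96 h control and COX5A and NDUFB10 after CTCF depletion. From 0 h to 96 h control, the 21 subunits that fell became 32 with library-size scaling, 32 with upper-quartile scaling, 51 at an adjusted p below 0.05 with no fold threshold and 5 at a log2 fold threshold of 1, and 16 to 30 when single libraries were left out. The 3 that rose became 9 with no fold threshold and 0 at a fold threshold of 1. After CTCF depletion, the 2 that fell became 0 with library-size scaling, 1 with upper-quartile scaling, 1 with no filter, 1 with only the 4 libraries compared, 31 with no fold threshold and 0 at a fold threshold of 1, and 0 to 2 with single libraries left out. The 0 that rose became 2 with no fold threshold. At an adjusted p below 0.05, the 2 higher became 1 with no filter, 1 with at least 10 counts in every library, 0 with DESeq2 and 0 to 2 with single libraries left out, and the 31 lower became 17 with DESeq2 and 16 to 25 with single libraries left out. The median of −0.18 became −0.16 with RLE scaling, −0.14 with library-size scaling, −0.14 with upper-quartile scaling, −0.14 with no filter, −0.16 with at least 10 counts in every library, −0.16 with DESeq2 and −0.14 with only the 4 libraries compared, and −0.18 to −0.074 with single libraries left out. Relative to the median of all genes it stayed between −0.15 and −0.14 with every edgeR scaling and with only the 4 libraries compared. Against 0 h, the 1 subunit that rose in depleted iMacs became 2 with at least 10 counts in every library, 5 with no fold threshold, 0 at a fold threshold of 1 and 1 to 2 with single libraries left out, and the 34 that fell became 59 and 14 at these last thresholds. The causes were not tested, except that stricter or absent fold thresholds change these counts by construction. With the replicate number as a block, the 2 subunits higher after depletion at an adjusted p below 0.05 became 1, and no other count of subunits moved by over 1.5 times.

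With 2 libraries a group, 1 subclone and no auxin control without the degron, small differences rest on the shared estimate of the spread. Where a group is left with 1 library, that library is assumed to vary like the other groups. Changes smaller than the fold threshold made up most of the differences, so counts of calls depend on that threshold.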
